A study of Mus musculus with 34 samples.

Results

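Colonic macrophages whose IL-10 receptor α gene, Il10ra, was inactivated were compared with macrophages of the control group titled CX. The comparison takes 7 of the 34 libraries of the series, 5 titled IL10R (numbered 27, 32, 61, 67 and 68) and 2 titled CX (numbered 1 and 3), and every gene with a name in their expression table, 8816 in all, of which 6612 passed a filter on low values and were tested. All 7 libraries came from C57BL/6 mice of 6 to 7 weeks, without antibiotics, and from colonic macrophages sorted as CD45+, CD11b+, CD11c-intermediate and CD64+ cells that lacked Ly6c and CD103. The labels give neither the genotype behind CX nor the meaning of the tag 5C5 in the IL10R titles. They do not say which promoter drives the deletion, although in the published line Cre recombinase acts from the Cx3cr1 locus, so that cells other than macrophages keep the receptor. They also do not say that each library is a separate mouse, so p-values speak only of how far the sequenced libraries scatter, and that scatter may be technical. The same table holds 11 further libraries, of the groups IL10R_P19 (4), IL10R_abx (4) and littermate_abx (3), also from mice of 6 to 7 weeks. The tag P19 stands for the further loss of the p19 chain of IL-23 in Il10ra-deficient mice. The 7 libraries of IL10R_abx and littermate_abx came from mice given antibiotics in the drinking water, and the genotype of these littermates is not in the labels. The 18 libraries entered 1 fit, so that the spread of a gene was estimated over all of them.

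IL-10 binds a receptor made of a ligand-specific chain, encoded by Il10ra, and a shared chain, encoded by Il10rb. The receptor signals through the kinases JAK1 and TYK2 and the transcription factor STAT3, which restrains inflammatory gene expression in macrophages. In the gut wall, macrophages are renewed from blood monocytes, lie just below the epithelium and take up bacteria and dead cells, and loss of their IL-10 receptor is known to lead to colitis in mice. The deposited values are normalised read numbers per gene without a correction for gene length, so a level is compared here between libraries of 1 gene and never between genes. Changes are given as IL10R minus CX on the scale log2(value + 0.997) with the standard error (SE). Genes were called at a Benjamini-Hochberg adjusted p under 0.05 in limma, a linear model fitted to every gene with variances shared between genes.

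Il10ra itself was lower in every library labelled IL10R. It stood at 31.2, 15.6, 10.97, 4.56 and 11.3 in IL10R 27, 32, 61, 67 and 68, against 248 and 284 in CX 1 and CX 3. The groups did not overlap, and the IL10R mean was 5.54% of the CX mean. The change was -4.31 (SE 0.62, limma adjusted p = 0.00122). An exact two-sided permutation test of the 7 values, which counts the smaller tail 2 times over 21 splits, gave p = 0.0952. This is the smallest value that this form of the test allows with 5 against 2 libraries, so in this form it cannot pass 0.05 for any single gene. Il10, the ligand, was also called lower, at 18.2, 15.6, 13.7, 19.7 and 24.1 against 59.0 and 48.4 (change -1.52, SE 0.33, limma adjusted p = 0.00791). Il10rb fell by 0.63 on the log2 scale (SE 0.19, limma adjusted p = 0.0356), from 207 and 206 in the CX libraries to between 92.3 and 169. Its call held in 3 of the 5 fits that left out an IL10R library, and its change lay between -0.72 and -0.03 over the alternatives. Of the 10 genes of the IL-10 receptor and signalling list these 3 were called lower and none higher. Of 20 tested genes in the list of IL-10 and STAT3 response genes the test called 4 lower, and the inactivated gene Il10ra is itself among these 4. Another was Fcgr2b, the inhibitory Fc receptor (change -1.20, SE 0.23, limma adjusted p = 0.00386). In the same list 1 gene was higher: Tnip3, an inhibitor of NF-κB signalling. Over all tested genes 6.03% were called lower and 3.87% higher.

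Depth ranged from 1100692 to 1974254 reads in the IL10R libraries and was 1418724 and 2497055 in the CX libraries. Of the markers that define macrophages, Csf1r, Cx3cr1 and Adgre1 were plainly present in all 7 libraries, and Mertk is not listed in the table. Defining markers of B cells (Cd79a, Ms4a1), T cells (Cd3e), dendritic cells (Flt3, Zbtb46, Itgae), mast cells (Cpa3, Kit) and eosinophils (Siglecf) are not listed either. Other markers of B and dendritic cells are listed: of 3 tested B and plasma cell markers 2 were lower and of 6 tested dendritic cell markers 3, with none higher. The 11 listed dendritic cell markers took 0.0499 to 0.0703% of the total of an IL10R library and 0.1002 and 0.116% in CX. The 4 listed B and plasma cell markers took 0.0290 to 0.0716% against 0.0299 and 0.121%. Over all tested genes 6.03% were called lower. Epithelial RNA was present in all 7 libraries: Epcam, an epithelial adhesion molecule, stood between 834 and 1499, Krt8, a keratin of simple epithelia, between 2364 and 3703, and Muc2, the goblet cell mucin, between 2152 and 5491. None of the 3 was called. The 28 listed colonocyte and epithelial markers took 1.93 to 2.63% of the total of an IL10R library and 1.497 and 1.57% of CX 1 and CX 3. Without Reg3b, Reg3g, Clca4b and Plet1, described below, the other 24 took 1.60 to 1.92% against the same 1.497 and 1.57%. Goblet and secretory markers took 1.60 to 2.77% against 2.08 and 1.60%. The 32 listed resident macrophage markers went the other way, at 1.87 to 2.77% against 4.71 and 4.61%. A list of 30 genes expressed by leukocytes of every kind, added after the values were seen, took 0.508 to 0.787% in IL10R and 0.823 and 0.843% in CX. In bulk RNA fewer cells of a type and less RNA per cell cannot be told apart.

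**Figure D1:**
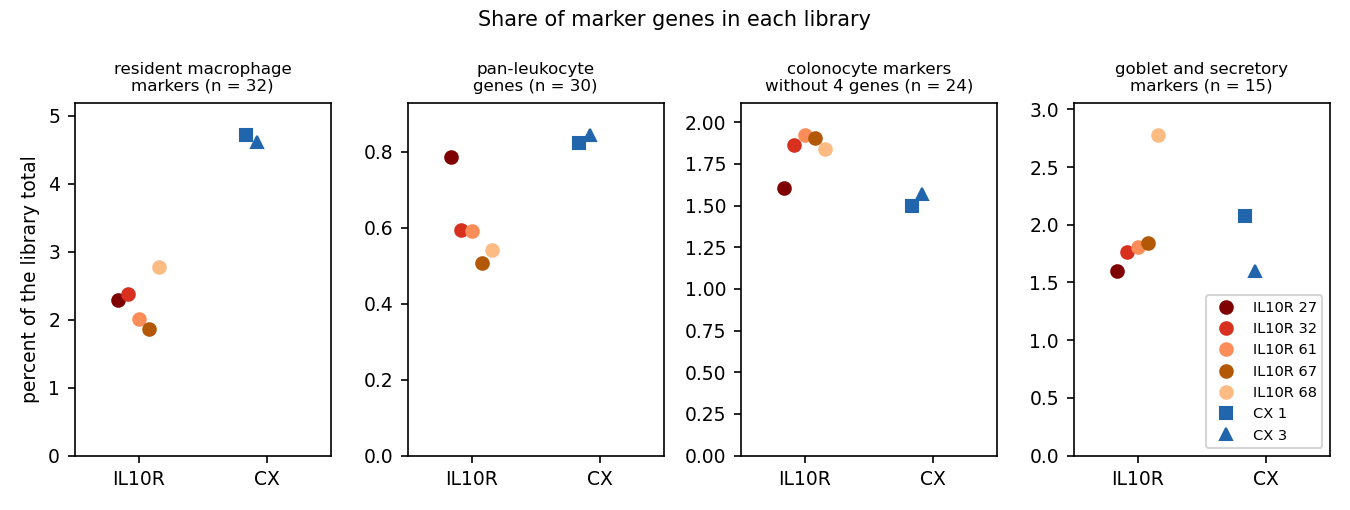
Share of each library's total (percent, axes from 0, scaled separately) taken by 4 marker lists in the 5 IL10R libraries (circles) and the 2 CX libraries (square, triangle), 1 point per library. Resident macrophage markers take 1.87 to 2.77% in IL10R and 4.61 to 4.71% in CX, while the 24 colonocyte markers shown take 1.60 to 1.92% against 1.497 to 1.57%.

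Of 6612 tested genes 655 were called, which is 9.91%. Of these 256 (3.87% of the tested genes) were higher in IL10R and 399 (6.03%) lower. At least 2-fold changes were seen for 96 higher and 181 lower genes and at least 4-fold changes for 15 and 19. In 647 of the 655 the 5 IL10R libraries did not overlap the 2 CX libraries. Without regard to calls, all 5 IL10R libraries lay above both CX libraries for 18.8% of the tested genes and below both for 18.3%. Rescaling the libraries to equal totals gave 385 higher and 333 lower genes, so the balance between the directions depends on the scaling. The number of calls rests on having 2 CX libraries: 94 genes were called without CX 3 and 20 without CX 1. Without IL10R 32 the number was 413, and without any other IL10R library it stayed within 1.5 times of 655. No gene list described here kept more than 6 calls without CX 3 or more than 2 without CX 1.

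Among the 5 IL10R libraries, IL10R 68 most often lay nearest to CX. It was the nearest in 142 of the 256 higher genes (55.5%) and in 191 of the 399 lower genes (47.9%), against 25.05% of the genes not called. IL10R 27 was the farthest in 113 of the higher genes (44.1%) and IL10R 32 in 94 (36.7%), against 32.01 and 22.4% of the genes not called. IL10R 27 also stood apart in neutrophil genes. S100a9, a calcium-binding protein abundant in neutrophils, stood at 925 in IL10R 27 and at 31.1, 12.3, 6.83 and 4.83 in IL10R 32, 61, 67 and 68, and its partner S100a8 at 183 against 2.74 to 12.4. Neither was called, S100a8 being too low for the test. The 7 listed neutrophil markers took 0.1002% of the total of IL10R 27 and 0.0161 to 0.0219% of the other IL10R libraries, against 0.0160 and 0.0271% in CX.

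The genes that differed most were antimicrobial and secreted products. Reg3b, a lectin-like antimicrobial protein known from intestinal epithelium, stood at 7459, 258, 1535, 2808 and 821 in IL10R 27, 32, 61, 67 and 68 and at 1.04 and 0.569 in the CX libraries, which is 1 read in each. The ratio of reads, corrected for depth, was 3063 with an exact 95% interval of 848 to 25292 that covers counting error only. All IL10R libraries lay far above CX but differed from one another by more than the change of most called genes (log2 change 9.69, SE 1.72, limma adjusted p = 0.00379). Reg3g, its close relative, which binds Gram-positive bacteria, stood at 5368, 133, 744, 1753 and 299 against 3.11 and 1.71 (change 7.86, SE 1.48, limma adjusted p = 0.00452). Both genes were highest in IL10R 27 and lowest in IL10R 32. Nos2, the inducible nitric oxide synthase of inflammatory macrophages and epithelium, stood at 434, 237, 164, 53.9 and 16.9 against 0 and 0.569 (change 6.47, SE 1.103, limma adjusted p = 0.00239). The CX libraries together held 1 read of it, which gives a ratio of 423 with an interval of 75.7 to 16730. For Nos2 the order was IL10R 27, 32, 61, 67, 68, with IL10R 68 nearest CX. Of the 16 tested genes of antimicrobial and oxidative defence 4 were higher and 2 lower, against 3.87% and 6.03% of all tested genes. The median change was 0.25 against 0.01 over all tested genes. With no filter on low values 6 of the 24 listed genes were higher and 2 lower, with a median of 1.35. The fourth higher gene was Sod2, mitochondrial superoxide dismutase, and the lower genes included Lyz2, macrophage lysozyme (change -0.93).

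Several further higher genes are best known from epithelium. Clca4b, of a family of secreted chloride channel regulators, stood at 915, 319, 346, 289 and 18.5 against 0 and 0.569 (change 7.49, SE 1.24, limma adjusted p = 0.00199). With 1 CX read its ratio was 909 and the interval 163 to 35908. Plet1, a surface protein of epithelial progenitors, stood at 917, 235, 316, 166 and 35.4 against 10.4 and 8.54. In both genes 4 IL10R libraries were high and IL10R 68 was low, but above CX. Dmbt1, a secreted scavenger protein of the mucosa, was 4.99-fold higher, at 8977, 6464, 5732, 6091 and 3131 against 1072 and 1362 (change 2.25, SE 0.43, limma adjusted p = 0.00452). Muc13, a mucin of the epithelial surface, was 2.09-fold higher, and the zinc transporter Slc39a4 2.38-fold. Of the 27 tested colonocyte markers 6 were higher (Reg3b, Reg3g, Clca4b, Plet1, Krt20 and Cdh17), against 3.87% of all tested genes. None was lower, and the median was 0.36. As given above, the marker share of epithelium without the leading genes was also somewhat higher in IL10R, and its part in these results was not tested. Under the alternative that adds the mean level of those 24 markers as a covariate, Reg3b, Reg3g, Clca4b and Plet1 kept their calls. That mean log2 level overlapped between IL10R (8.84 to 9.115) and CX (8.64 and 8.91). It differed mainly from the antibiotic libraries (6.39 to 7.66), so this fit cannot tell which cells these transcripts came from, and their source was not tested.

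**Figure D2:**
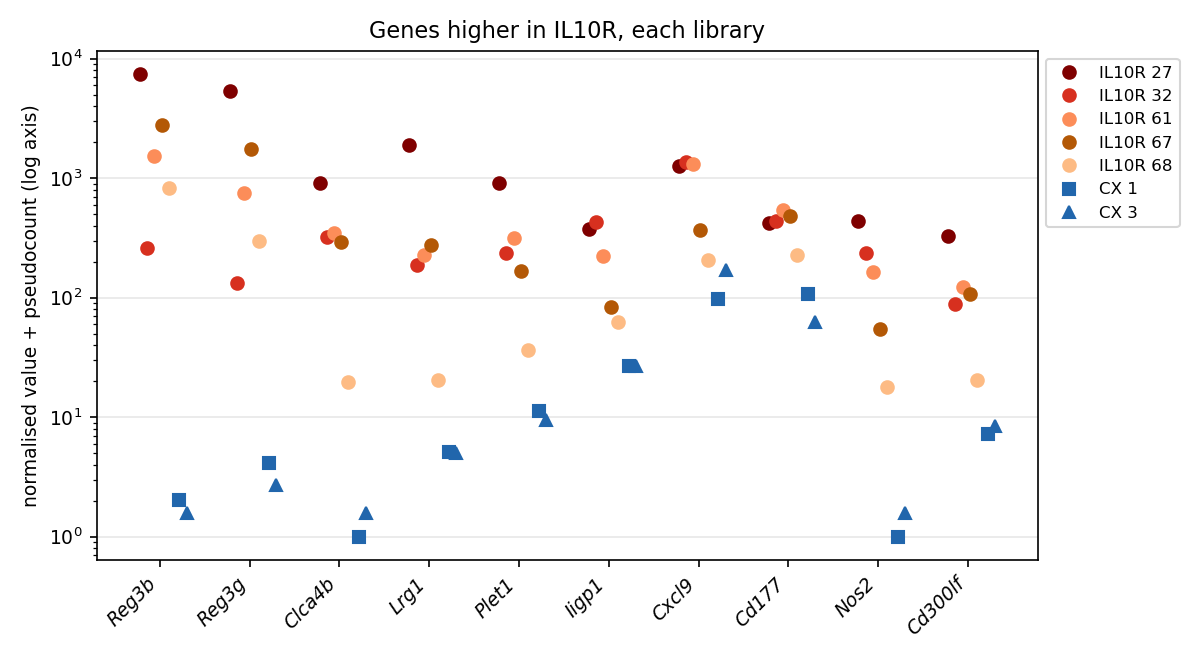
Normalised value plus the pseudocount of 0.997 (log axis) in each of the 5 IL10R libraries (circles) and the 2 CX libraries (square, triangle) for the 8 genes with the highest changes by the naming rule and for Nos2 and Cd300lf. All circles lie above the CX points of the same gene, and IL10R 68 is the lowest circle except in Reg3b and Reg3g, where IL10R 32 is.

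Ang4, an angiogenin-family ribonuclease of Paneth and goblet cells, went against this direction. It stood at 78.0, 84.0, 104 and 209 in IL10R 27, 32, 61 and 67, but at 1823 in IL10R 68, against 1775 and 1294 in CX. IL10R 68 thus lay above both CX libraries and the other 4 below them. The call (change -2.97, SE 0.87, limma adjusted p = 0.0418) was lost in 13 of 21 alternatives, among them edgeR (adjusted p = 0.252), DESeq2 (adjusted p = 0.244) and the fit of the 7 libraries alone (limma adjusted p = 0.208), and without IL10R 27, 32, 61 or 67 or either CX library. Mptx1, a mucosal pentraxin noticed after its values were seen, had the same pattern, at 1025 to 1916 in those 4 libraries, 8416 in IL10R 68 and 9572 and 7762 in CX. Ang4 was the only one of the 14 tested goblet and secretory markers called lower, with 2 higher (Dmbt1 and Muc13) and a median of -0.29. Without IL10R 68 the list had 5 lower genes, and under edgeR, DESeq2, no filter or the 7 libraries alone it had none. These 5 fits called 438, 525, 589, 396 and 563 of all their tested genes lower.

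Of 17 tested genes induced by interferon-γ 4 were higher in IL10R and 13 were not called. Cxcl9, a chemokine that attracts T cells, stood at 1260.1, 1375, 1324, 366 and 205 against 97.3 and 169.7 (6.79-fold, change 2.44, SE 0.66, limma adjusted p = 0.0286). Iigp1, an immunity-related GTPase that attacks the vacuoles of intracellular pathogens, stood at 375, 432, 224, 82.8 and 61.9 against 25.9 and 25.6 (9.13-fold, change 2.76, SE 0.62, limma adjusted p = 0.0132). Gbp2, a guanylate-binding protein with the same task, stood at 393, 492, 261, 113 and 93.3 against 49.7 and 69.5 (4.54-fold, change 1.90, SE 0.52, limma adjusted p = 0.0304). In each of these 3 genes the libraries 27, 32 and 61 formed a high group and 67 and 68 a lower one, with no IL10R library below a CX library. Irgm2, which regulates the immunity-related GTPases, was the fourth member called (change 1.31, SE 0.40, limma adjusted p = 0.0450). None of the 17 was lower, 16 had a change above 0, 8 had all IL10R libraries above both CX libraries, and the median was 0.85. Over all tested genes 18.8% had all IL10R libraries above both CX libraries and 3.87% were called higher. Without IL10R 68, 9 of the 17 were called. Without IL10R 27 the number was 2. It was 1 without IL10R 32, without IL10R 61, in the 11 libraries without antibiotics and with the epithelial level as a covariate, and in a fit of the 7 libraries alone none was called. Of all 6612 tested genes 303 were higher without IL10R 68, 204 without IL10R 27, 141 without IL10R 32 and 220 without IL10R 61. The number was 606 in the 11 libraries without antibiotics, 280 with the covariate and 530 in the 7 libraries alone, against 256 in the main fit.

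By contrast, of the 18 tested type I interferon-stimulated genes only Ifi47 was called higher, none was lower, and the median was -0.11. Ifi47 is an immunity-related GTPase that also responds to interferon-γ, and it stood at 159, 230.2, 114, 56.2 and 44.2 against 30.0 and 36.4 (change 1.58, SE 0.49, limma adjusted p = 0.0490). The difference between the lists was not tested.

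The promoters of the called interferon-γ genes were searched for the interferon-stimulated response element, here GAAA followed after any 2 bases by another GAAA, and for the STAT dimer site, TTCNNNGAA, on both strands, in the 250 bases before the RefSeq start (build GRCm38.p6). Of the 4 called genes 3 had a RefSeq window and 2 of these held a motif. Both windows are printed because these genes were called and hold a motif. Capitals mark the matches, on the strand of the gene. Cxcl9 held neither motif.
Gbp2, chr3:142620413-142620662, plus strand: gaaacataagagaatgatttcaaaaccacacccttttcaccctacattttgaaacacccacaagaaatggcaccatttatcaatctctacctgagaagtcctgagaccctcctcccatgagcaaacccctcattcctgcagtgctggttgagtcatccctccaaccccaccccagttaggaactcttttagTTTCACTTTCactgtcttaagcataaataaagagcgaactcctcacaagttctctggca
Irgm2, chr11:58214727-58214976, plus strand: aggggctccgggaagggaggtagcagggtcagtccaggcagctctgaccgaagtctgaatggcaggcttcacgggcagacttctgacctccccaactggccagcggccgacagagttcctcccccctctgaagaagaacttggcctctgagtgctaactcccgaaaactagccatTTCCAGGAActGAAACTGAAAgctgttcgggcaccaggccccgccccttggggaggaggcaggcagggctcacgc
The Gbp2 match is the response element read on the opposite strand, and in Irgm2 a STAT site lies just before a response element. Over all 5151 tested genes with a window 3.15% held the response element and 6.97% the STAT site. Among called higher genes the shares were 3.26% and 9.78%, and among called lower genes 2.61% and 7.19%. Of the 11 tested interferon-γ genes with a window 8 held the response element and 5 the STAT site. A match describes the letters in the window and no binding was measured.

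For antigen presentation the calls were of higher genes in class I and of lower genes in class II, and the difference between the lists was not tested. In the MHC class I and immunoproteasome list 4 of 20 tested genes were higher, against 3.87% of all tested genes, and none lower. The median was 0.54. Tap1, a subunit of the transporter that brings peptides to class I molecules, stood at 706, 657, 391, 293 and 216 against 143 and 147 (3.13-fold, change 1.49, SE 0.37, limma adjusted p = 0.0180). H2-Q7, a non-classical class I molecule, was 3.81-fold higher, but its row is identical to that of the near-identical gene H2-Q9, so the reads cannot be assigned to one of them. H2-T22 was 1.84-fold higher, and the fourth gene was the immunoproteasome subunit Psmb10. Without IL10R 27, 32 or 67 the list had 2 higher genes, and without IL10R 68 it had 8. Over all tested genes these fits called 204, 141, 189 and 303 higher. In the MHC class II and co-stimulation list 6 of 11 were lower, against 6.03% of all tested genes, and none higher. The median was -0.64. H2-Ab1, a class II β chain, stood at 5245, 3953, 5456, 5166 and 5241 against 16292 and 11497 (2.77-fold lower, change -1.46, SE 0.33, limma adjusted p = 0.0120). H2-Eb1 was 2.02-fold and H2-DMa, which loads peptides onto class II, 1.49-fold lower. H2-Aa, Cd74 and the co-stimulatory ligand Cd86 were the others. Under the scaling by leukocyte genes, given further on, the class II list had 1 lower and 1 higher gene. Here the 5 IL10R libraries lay close together, unlike in the interferon-γ genes, and all below CX.

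Genes that mark the resident, differentiated gut macrophage were lower as a group. Of 30 tested markers of this state 23 were lower, against 6.03% of all tested genes, and none was higher. All 30 changes were below 0, and the median was -1.26. Without CX 3 the test called 6 of them and without CX 1 none. Mrc1, the mannose receptor CD206, stood at 84.5, 104, 196, 142 and 254 against 839 and 631 (4.71-fold lower, change -2.33, SE 0.34, limma adjusted p = 0.00143). Csf1r, the receptor for the macrophage growth factor CSF1, stood at 1212, 984, 1044, 945 and 1336 against 2796 and 2971 (2.61-fold lower, change -1.40, SE 0.23, limma adjusted p = 0.00195). Cx3cr1, the fractalkine receptor, stood at 148, 204, 173, 126 and 218 against 541 and 578 (3.22-fold lower, change -1.71, SE 0.36, limma adjusted p = 0.00747). In all 3 genes every IL10R library lay well below both CX libraries, and IL10R 68 was the highest of the 5. Where Cre replaces 1 copy of Cx3cr1, its level also depends on the genotype of CX, which the labels do not give.

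After Il10ra, the lowest ratio among the named genes was that of Fcrls. Fcrls, an Fc receptor-like scavenger protein of microglia and gut macrophages, stood at 3.90, 45.6, 50.7, 37.97 and 113 against 396 and 439.5 (8.32-fold lower, change -3.58, SE 0.74, limma adjusted p = 0.00803). Folr2, a folate receptor, stood at 3.90, 14.5, 43.9, 32.7 and 74.0 against 146 and 131 (4.10-fold lower). Npl, which breaks down sialic acid, was 6.07-fold lower, and Igf1, insulin-like growth factor 1, 3.86-fold. Fcrls and Folr2 were lowest in IL10R 27 and highest in IL10R 68. Ly86, the partner of the Toll-like receptor relative RP105, stood at 277, 227, 323, 287 and 336 against 1343 and 1465 (4.84-fold lower), and Hspa8, the constitutive HSC70 chaperone, at 319.9, 325, 211, 228 and 227 against 1333 and 1358 (5.13-fold lower). In these last 2 genes the IL10R libraries were close together.

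**Figure D3:**
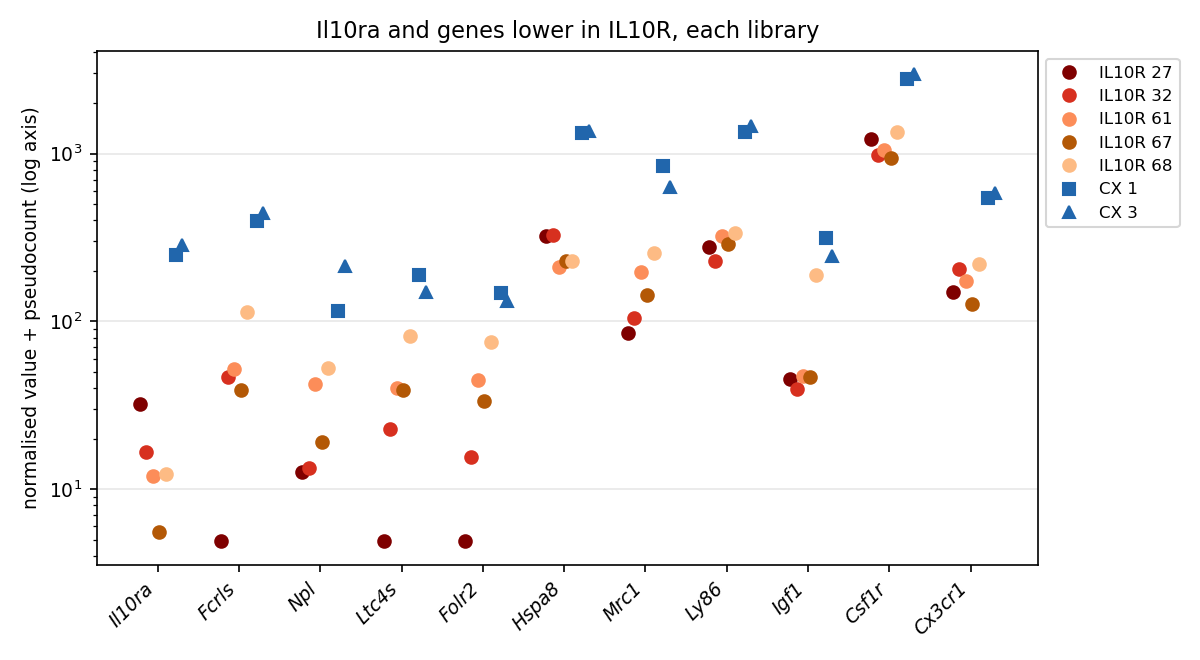
Normalised value plus the pseudocount of 0.997 (log axis) in each of the 5 IL10R libraries (circles) and the 2 CX libraries (square, triangle) for Il10ra, the 8 genes with the lowest changes by the naming rule, Csf1r and Cx3cr1. No circle reaches a CX point of the same gene, and in Fcrls, Ltc4s and Folr2 the lowest circle is IL10R 27 and the highest IL10R 68.

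The chemokines Ccl2 and Ccl7, which recruit monocytes, were lower as well. Ccl2 stood at 41.6, 30.1, 91.2, 31.1 and 70.8 against 151 and 149 (2.84-fold lower, change -1.63, SE 0.34, limma adjusted p = 0.00772), and Ccl7 was 2.89-fold lower. Pf4, a platelet chemokine that macrophages also make, was 3.86-fold lower, and Ccl3 was called lower too. Of the 16 tested chemokines 4 were thus lower and 1, Cxcl9, higher, against 6.03% and 3.87% of all tested genes. The median was -0.89. With no filter on low values 3 of 21 chemokines were higher and 3 lower, with a median of -0.60. Of 10 tested chemoattractant receptors Cx3cr1, the complement receptor C3ar1 (3.28-fold) and C5ar1 (2.95-fold) were lower and none was higher.

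Among inflammatory cytokines the calls were few. Il1b, interleukin-1β, stood at 1375, 1264, 1761, 1283 and 1144 against 2253 and 1958, and Tnf at 203, 68.4, 134, 66.8 and 78.8 against 185 and 131. Neither was called (change -0.64, SE 0.37, limma adjusted p = 0.293, and change -0.64, SE 0.48, limma adjusted p = 0.431). For Tnf the groups overlapped, and for Il1b all IL10R libraries lay below CX. Of 7 tested pro-inflammatory cytokines only Il16, a chemoattractant for CD4+ cells, was called, and it was 2.21-fold lower. Il12b, the p40 chain shared by IL-12 and IL-23, lay below the filter on low values, at 42.9, 33.2, 42.5, 12.9 and 8.85 against 3.11 and 1.71, with no overlap between the groups. When low genes were kept in the fit, the change of Il12b was 2.88 (SE 0.85) with a limma adjusted p of 0.0428. Il23a and Il6 are not listed in the table, so no level of them is given. Ebi3, a chain of IL-27 and IL-35, was 1.95-fold lower. Of 28 tested genes of pattern recognition and NF-κB only Tlr8, a sensor of single-stranded RNA, was called, 2.49-fold lower, with a median of -0.14.

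In the list of monocyte markers 4 of 12 tested genes were higher and 1 was lower, against 3.87% and 6.03% of all tested genes. The median was 0.41. Lrg1, a secreted leucine-rich glycoprotein induced in inflammation, stood at 1895, 188, 225, 277 and 19.3 against 4.14 and 3.99 (128-fold by means, change 5.41, SE 1.01, limma adjusted p = 0.00420). Cd300lf, an inhibitory receptor of myeloid cells, stood at 325, 88.1, 121, 106.3 and 19.3 against 6.21 and 7.40 (19.4-fold, change 3.61, SE 0.64, limma adjusted p = 0.00328). In both IL10R 27 was far the highest and IL10R 68 the lowest. Cd177, a surface protein of neutrophils, was 5.03-fold higher, at 420.0, 436, 542, 485 and 225 against 105.6 and 62.1, and did not follow S100a8 and S100a9, which were high in IL10R 27 alone. Ly6c1, one of 2 genes for the Ly6C antigen that the sort left out, stood at 317, 212, 121, 152 and 54.7 against 30.0 and 51.2 (change 1.88, SE 0.44, limma adjusted p = 0.0145). The other, Ly6c2, was too low for the test and overlapped, at 22.02 to 100.1 against 24.9 and 79.1. Lrg1, Cd177 and Ly6c1 are also expressed outside monocytes, in epithelium or endothelium. F13a1, a coagulation factor of monocytes and resident macrophages, was the lower gene. Of the other genes of the gate, Itgam (CD11b) was 2.24-fold lower, at 148, 155, 192, 145 and 212 against 371 and 393, while Itgax (CD11c), Fcgr1 (CD64) and Ptprc (CD45) were not called.

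**Figure D4:**
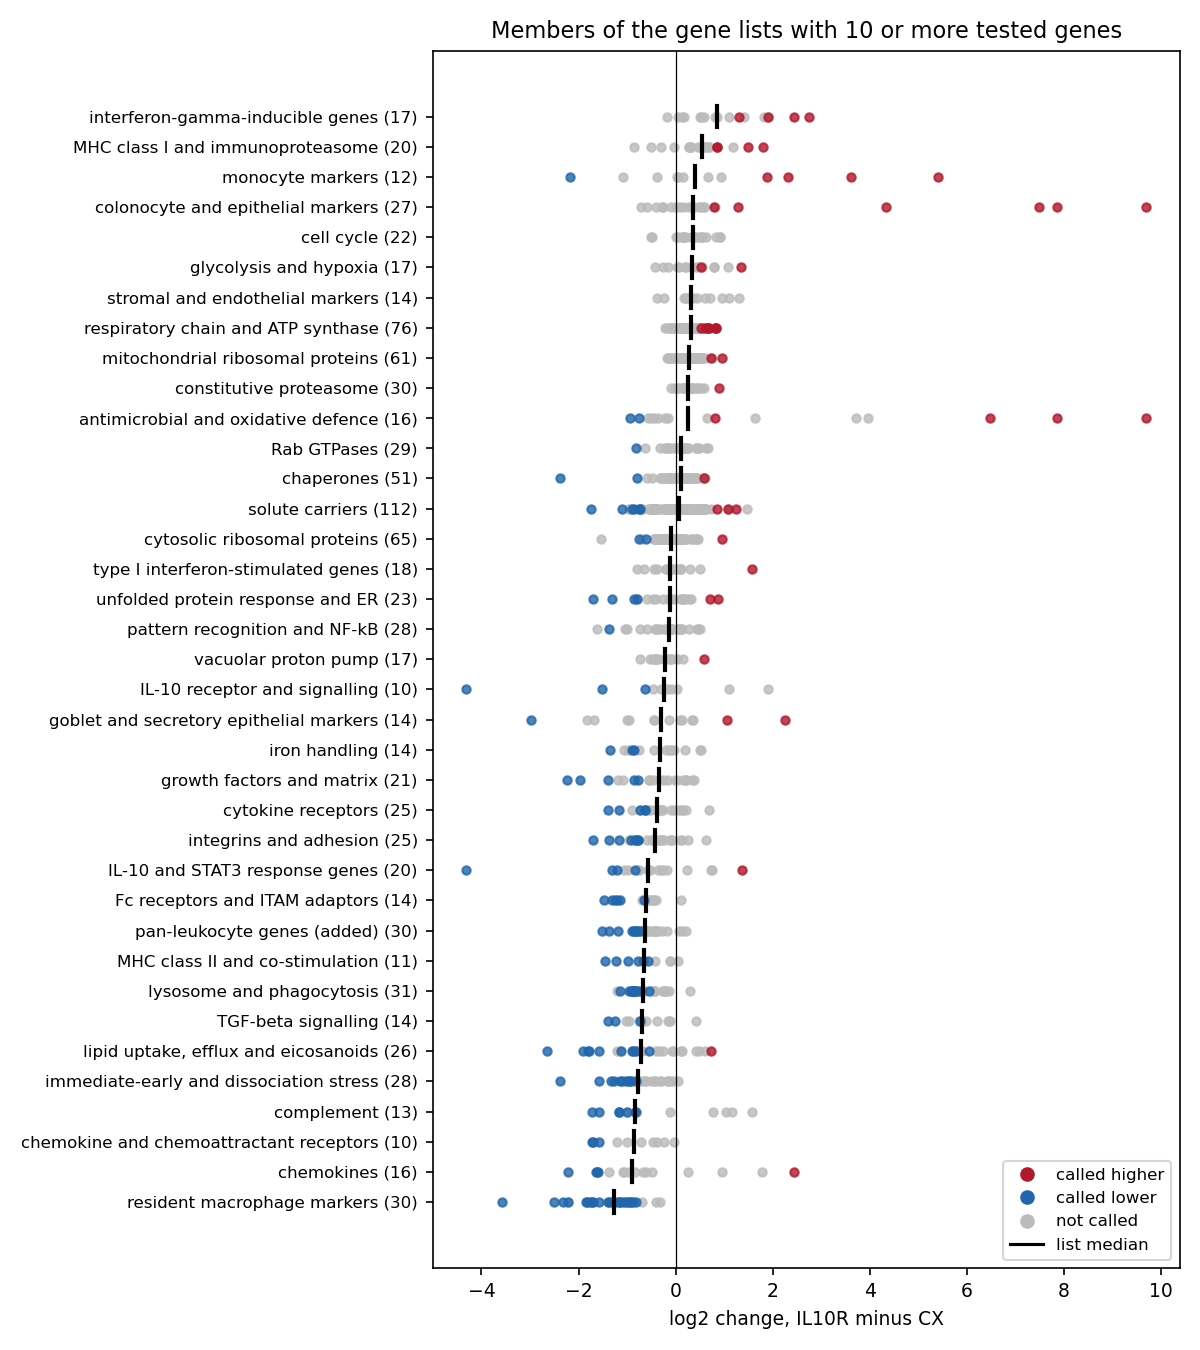
Change of every tested member (IL10R minus CX, log2 scale) of the gene lists with 10 or more tested genes, ordered by their medians (black bars), with the number tested in brackets. Resident macrophage markers lie lowest (median -1.26, 23 of 30 called lower) and interferon-γ-inducible genes highest (median 0.85, 4 of 17 called higher).

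Lists of macrophage effector functions fell in the same direction as the resident markers, where 6.03% of all tested genes were called lower. Of 31 tested lysosome and phagocytosis genes 13 were lower and none higher (median -0.68), among them the proteases Ctsl (2.26-fold) and Ctsb (1.78-fold) and the mannosidase Man2b1 (1.83-fold). Of 13 complement genes 7 were lower (median -0.83). C1qc, a chain of the first complement component, stood at 1974, 1782, 1536, 1582 and 2279.5 against 4042 and 4056, and C1qb was 1.98-fold lower. Of 14 Fc receptor and adaptor genes 6 were lower (median -0.61). Fcgrt, the neonatal Fc receptor that recycles IgG, stood at 119.6, 117, 132, 144 and 204 against 382 and 406 (2.75-fold lower, change -1.48, SE 0.20, limma adjusted p = 0.000528). Fcgr3, an activating Fc receptor, was 2.18-fold lower, and Fcer1g, the shared signalling chain, 2.43-fold. Of 26 genes of lipid uptake and eicosanoids 10 were lower and 1 was higher (median -0.71). The lower ones included Ptgs1, cyclooxygenase-1 (3.32-fold), Ltc4s, leukotriene C4 synthase (4.59-fold), and Hpgds, prostaglandin D synthase (3.00-fold).

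Growth factors, adhesion and iron genes followed with fewer calls. Tgfb1, transforming growth factor β1, stood at 55.9, 58.1, 69.2, 67.6 and 81.2 against 191 and 159 (2.63-fold lower, change -1.39, SE 0.22, limma adjusted p = 0.00156), and its receptor Tgfbr2 was 1.66-fold lower. Of 21 growth factor and matrix genes 5 were lower (median -0.34), of 14 TGF-β genes 3 (median -0.70) and of 14 iron genes 3, among them Trf, transferrin (2.45-fold), and the light ferritin chain Ftl1 (1.87-fold). None in these lists was higher, and over all tested genes 6.03% were called lower and 3.87% higher. Of 25 integrin and adhesion genes 8 were lower and none higher (median -0.42). Without IL10R 32 the number was 5, and 272 of all tested genes were lower. Amica1, the junctional adhesion molecule-like protein of leukocytes, stood at 124, 139, 156, 137 and 178 against 420.4 and 532 (3.25-fold lower, change -1.69, SE 0.26, limma adjusted p = 0.00142). Hfe, which regulates iron uptake, was 2.51-fold lower.

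Immediate-early and dissociation stress genes rise within minutes of tissue handling as well as in response to signals. They were also lower in IL10R: 11 of 28 tested, against 6.03% of all tested genes, and none higher, with a median of -0.77. Nr4a1, an orphan nuclear receptor, stood at 299, 343, 539, 529 and 660.4 against 1118 and 1186 (2.43-fold lower, change -1.34, SE 0.29, limma adjusted p = 0.00820). Fos, Fosb, Jun, Junb and Egr1 were among the others. The list took 0.992 to 1.63% of an IL10R library and 1.89 and 2.46% of CX, so a measure of handling also differs between the groups, and its part in the other results was not tested. The count was 5 without IL10R 32 and 7 without IL10R 27, fits that called 272 and 415 of all tested genes lower. Of 23 genes of the unfolded protein response 4 were lower and 2 higher. Ddit3, the stress transcription factor CHOP, stood at 83.2, 90.2, 112, 77.5 and 138 against 303 and 341 (3.22-fold lower, change -1.71, SE 0.27, limma adjusted p = 0.00170).

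The share of leukocyte RNA was lower in IL10R as well, and its part in these falls was not tested. Of the 30 genes of the added leukocyte list 9 were lower, against 6.03% of all tested genes, and none higher, with a median of -0.63. When every library was rescaled by these 30 genes, an alternative added after the values were seen, the median change of all tested genes moved from 0.01 to 0.61. Such a rescaling moves all genes of a library by 1 factor. A shift of every list median by about as much, with fewer lower calls, therefore follows from the rescaling itself. Resident macrophage markers were then still lower in 14 of 30 with a median of -0.66. On that scale 15 of 17 interferon-γ genes and 15 of 20 MHC class I genes were higher, but so were 2894 of all 6612 tested genes, with 82 lower. The lysosome list kept no lower gene and gained 1 higher, with a median of -0.07. The MHC class II list had 1 lower and 1 higher, with a median of -0.03, the immediate-early list 1 lower of 28, the complement list 2 lower and 4 higher, and the Fc receptor list 3 lower of 14. The median of the integrin list turned to 0.19, with 2 lower and 5 higher. Which scale is the better one was not tested.

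**Figure D5:**
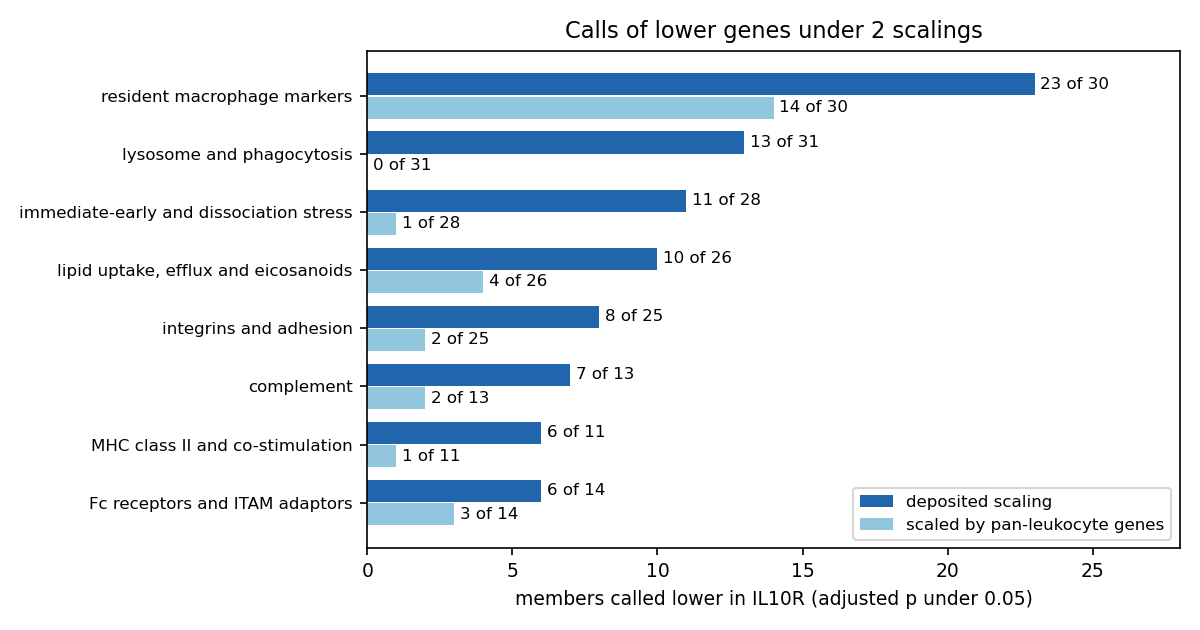
Number of list members called lower in IL10R (bars from 0, with the count of tested members) under the deposited scaling and after rescaling each library by 30 pan-leukocyte genes. Resident macrophage markers go from 23 to 14 of 30, lysosome genes from 13 to 0 of 31. Over all 6612 tested genes the number goes from 399 to 82.

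Of 76 tested genes of the respiratory chain and ATP synthase 8 were higher and none lower, with a median of 0.31. In 69 the change was above 0, and in 37 all IL10R libraries lay above both CX libraries, against 18.8% of all tested genes. Of the 76 genes 4 were higher without IL10R 32 and 16 in the fit of the 7 libraries alone. Over all 6612 tested genes these fits called 141 and 530 higher. Atp5b, a catalytic subunit of ATP synthase, stood at 4722, 5131, 3863, 4416 and 3985 against 2531 and 3021 (1.59-fold higher, change 0.67, SE 0.16, limma adjusted p = 0.0123). In glycolysis Pfkp, a phosphofructokinase, was 2.58-fold and Hk1, hexokinase 1, 1.44-fold higher, of 17 tested genes (median 0.35), and none was lower. Mitochondrial ribosomal proteins gave 2 higher of 61 (54 with a change above 0), cytosolic ribosomal proteins 1 higher (Rpl29, 1.92-fold) and 2 lower of 65, and the constitutive proteasome 1 higher of 30. Over all tested genes 3.87% were called higher and 6.03% lower. No cell cycle gene was called among 22 tested by limma, with a median of 0.35, and 4 had an unadjusted p under 0.05, while edgeR called none of them and DESeq2 called 2 higher.

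Whether the difference from CX was the same as that between the antibiotic-treated groups IL10R_abx and littermate_abx was asked with the difference of the 2 differences. The 2 comparisons share no library. Of 6612 genes 7 were called, which is 0.106%, and 699 had an unadjusted p under 0.05 in limma. Fcgrt, Fcgr3, Hfe, Amica1, Batf3 and Rab11fip5, the last outside the naming rule, were called lower in IL10R against CX, while under antibiotics their libraries overlapped between the groups. For Fcgrt the libraries of IL10R_abx lay between 581 and 771 and those of littermate_abx between 674 and 787 (difference of differences -1.39, SE 0.26, limma adjusted p = 0.0426). Amica1 lay between 102 and 159.5 in IL10R_abx and between 104 and 136 in littermate_abx (difference of differences -1.86, SE 0.35). Gbp2b, a guanylate-binding protein, was the seventh: it stood at 152, 174, 126, 147 and 135 in IL10R and 92.2 and 184 in CX, but at 305, 387, 187 and 209 in IL10R_abx against 62.0, 70.4 and 55.8 in littermate_abx (difference of differences -1.88, SE 0.36, limma adjusted p = 0.0426). Antibiotics and the level of epithelial RNA moved together: the mean log2 level of the 24 epithelial markers was 6.39 to 7.66 in the 7 antibiotic libraries and 8.64 to 9.12 in IL10R and CX, and its part was not tested. The 7 calls were lost in a fit without both the variance trend and robust variances, and leaving out single libraries gave between 0 and 73 calls, the latter without IL10R 68.

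The first table of the series holds 3 other libraries labelled IL10R and 3 titled CXhet, all from mice of 6 to 7 weeks. They were normalised separately, so only their order within that table was read. The value of Il10ra in that table was 9.26 in the library labelled IL10R 1, 361 in IL10R 2 and 65.9 in IL10R 3, against 689, 501 and 371 in CXhet, so the library labelled IL10R 2 lay close to the lowest CXhet library and goes against its label. Over 6591 genes in both tables all 3 IL10R libraries lay above all CXhet libraries for 14.7% and below them for 16.5%. Of the 256 genes higher here 67 (26.2%) were above in that table, 4 were below and 185 overlapped. Of the 399 lower genes 147 (36.8%) were below, 19 above and 233 overlapped. Without the library labelled IL10R 2, a count added after the values were seen, 93 (36.3%) of the higher genes were above and 6 below, with 18.1% of all genes above, and 159 (39.8%) of the lower genes were below and 20 above, with 19.4% of all genes below. Reg3b stood there at 4056, 69.9 and 4662 in IL10R, the 69.9 being the library labelled IL10R 2, against 13.7, 55.9 and 59.8, and Cxcl9 at 3201, 5430.1 and 4654 against 265, 229 and 101. Both had their IL10R libraries above, as did Reg3g, Clca4b, Nos2, Lrg1, Iigp1 and Tap1. Fcrls, Mrc1, Ltc4s, Ccl2, Tgfbr2 and Fcgrt had them below. Dmbt1, Muc13 and Atp5b overlapped there. Among the lower genes Csf1r, Cx3cr1, H2-Ab1, H2-Eb1, C1qb, C1qc, Fcgr3, Fcer1g, Tgfb1, Ctsb, Il10, Il10rb and Fcgr2b overlapped too. Of the 62 named genes called lower here 28 were below there and 4 above. Of the 32 named genes called higher 18 were above and none below. Ly86, H2-DMa, Man2b1 and Slc11a1, an iron transporter of phagosomes, were lower here and above there. For Ly86 the values were 1921, 2049 and 1556 in IL10R against 1499, 1374 and 1026 in CXhet, so its direction differed between the tables. Il1b and Tnf, not called here, also had all IL10R libraries above CXhet in that table.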

How the data were processed

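Polyadenylated RNA of sorted macrophages was captured, amplified by in vitro transcription and sequenced, per the labels' protocols. HISAT 0.1.6, HOMER, bcl2fastq and the mouse build mm9 are named per the submitters' processing notes. How the authors annotated genes or treated strand and multi-mapping reads is not given in the sources used here. The deposited values are a signal, not raw counts: each is a read number divided by 1 factor per library, since 100% of values were whole multiples of 1 read within 0.01 read. Rows without a name (15605) held no number and were left out. Every listed gene reaches at least 37.0 in some library, so unlisted genes may be low.

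The test was limma 3.58.1 in R 4.3.3 with a variance trend and robust variances on log2(value + 0.997), which understates changes of low genes. All 18 libraries entered it, and genes with a mean up to 40.4 (the lower 25%) were removed. The p-values were adjusted over 6612 genes. The design foresaw a count test for raw counts, so edgeR 4.0.16 and DESeq2 1.42.0 on recovered reads served as alternatives. The fit was first tested on simulated data. No 2 replicates agreed within counting noise (smallest chi-square per degree of freedom 3.59).

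The comparison, its 45 gene lists and the naming rule were chosen with earlier results of these data known. The rule takes Il10ra, the genes of the sort, 8 called genes per direction with the largest changes, without overlap and above the median level, up to 3 called members per list, the interaction genes and some cytokines. It names 102 genes, and those with the least change are given only within counts. Some genes it names are not reported here. Lists share members. Windows before gene starts are RefSeq's, GRCm38.p6, and 5151 of 6612 tested genes matched by symbol.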

Additional observations from a re-analysis of the deposited data

Results flagged for a closer look

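In 6 of 102 named genes 1 IL10R library lay far from the other 4, its gap to the nearest being above 0.71 of the range of the group. About 1 in 20 groups is expected to do so without any cause. IL10R 68 was the lowest for Itgax (253) and the highest for Igf1 (187) and C5ar1 (34.6), both of which were lower than CX in all 5. IL10R 32 was the lowest for H2-Ab1 (3953), IL10R 27 the highest for Fcer1g (525) and IL10R 67 the lowest for Hspa5, an endoplasmic reticulum chaperone (926).

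The difference of the differences, without antibiotics minus under antibiotics, passed limma's adjusted threshold in 7 genes. It was -1.86 for Amica1, -1.39 for Fcgrt, -1.42 for Hfe, -1.31 for Rab11fip5, -1.28 for Fcgr3 and -1.11 for Batf3, a transcription factor of dendritic cells. For Gbp2b it was -1.88, and there IL10R and CX overlapped while the IL10R_abx libraries lay above the littermates.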

How the results depend on the processing

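No paired analysis was possible because IL10R (27, 32, 61, 67, 68) and CX (1, 3) share no replicate number. The 655 calls became 1093 with the 7 libraries alone, 1514 with library weights, 1101 with DESeq2 and, in alternatives added after the values were seen, 1159 in the 11 libraries without antibiotics and 2976 with leukocyte scaling. They lay between 20 and 741 with 1 library left out. The other settings, edgeR (854 calls) and equal totals (718) among them, stayed within 1.5 times. The 7 interaction calls became 0 without trend and robust variances and 24 with edgeR, and lay between 0 and 73 with 1 library left out. Of 94 named calls 11 held without CX 1, 29 without CX 3 and 76 in every fit that left out an IL10R library. Fcgrt, Amica1, Hfe and Ddit3 held in all 21 alternatives and Il10ra in the 20 that tested it, being too low for the filter at the median. Itgax (-0.23 without CX 3) turned to 0.0015 without CX 1 and to 0.49 with leukocyte scaling, as did H2-DMa (0.030) and Rps10, a ribosomal protein (0.0012). Gbp2b was 0.66 without CX 3 and turned to -0.33 without CX 1. With 2 CX libraries the median SE was 0.23, and in genes of 1 or 2 CX reads the size of the change is loosely bounded.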

Other observations

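Some called genes outside the lists, chosen after their values were seen, are given as a description only. Tac1, the precursor of substance P, stood at 468, 200.2, 170.03, 112 and 24.9 in IL10R 27, 32, 61, 67 and 68 against 7.25 and 8.54 in CX (change 3.94, SE 0.75, limma adjusted p = 0.00404). Batf2, a transcription factor induced by interferon-γ, was higher by 1.67 and Procr, the endothelial protein C receptor, by 1.79, and both had IL10R 27, 32 and 61 high and 67 and 68 lower. Ly6a, the antigen Sca-1, was higher by 1.74. Sprr2a1, a small proline-rich epithelial protein, was higher by 1.52 (SE 0.19, limma adjusted p = 0.000528), with its IL10R libraries within 964 and 1452 against 315 and 496.5. It has near-identical copies, so its reads may be shared.

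Saa3, an acute-phase protein, stood at 1039, 114, 45.9, 16.7 and 8.04 against 2.07 and 6.26 and was not called (limma adjusted p = 0.0849). Ccl5, a T cell chemokine, stood at 2365 in IL10R 27 and between 137 and 566 in the other IL10R libraries, against 115 and 89.4, and was not called either. Among lower genes were the purinergic receptors P2ry12 (change -1.75) and P2ry13 (change -1.98), both known from microglia, the sialyltransferase St3gal4 (change -2.17) and Pgf, placental growth factor (change -2.31). All 5 IL10R libraries lay below both CX libraries in each of these 4 genes.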
